A study of Rattus norvegicus with 12 samples.

Results

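Immediate early genes are genes whose transcription starts within minutes of a signal without new protein being made, and 10 of them were followed in aged rat skeletal muscle: Egr1, Egr3, Btg2, Junb, Klf4, Atf3, Ier2, Fos, Arc and Plk3. They were chosen by their measured counts, which were lower after maternal protein restriction in these same libraries, so their difference between the diets is a description here and carries no test. They are 10 of the 24648 genes in the table of counts, and all 10 were among the 14225 genes with enough counts to be tested. The libraries came from muscle of male rats aged 540 days, born to dams that ate a control diet or a diet with 6% protein through pregnancy and lactation. The 12 libraries were 6 control and 6 restriction, and the numbers in their titles fell into 2 sets. Set 1 held control 3, 8 and 9 and restriction 12, 13 and 15, and set 2 held control 23, 28 and 29 and restriction 32, 33 and 35. The series studied 2 muscles, soleus and extensor digitorum longus, and no label ties either of them to a library. The labels give no strain, dam, litter or animal, so p-values measure only how these libraries vary, which may be technical variation in part.

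Most immediate early genes code for transcription factors or for proteins that hold back a signalling cascade. Serum response factor with its cofactors, acting at CArG boxes, and CREB, acting at cAMP response elements, start their transcription in many cell types when a kinase cascade or calcium is active, and their transcripts decay fast. In skeletal muscle they are known to respond to contraction, stretch, injury and feeding state.

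Promoter sequence is shown for the 5 genes that hold a CArG box or a cAMP response element, whole or in its shorter form TGACG, to show where these lie. RefSeq sequence of the build GRCr8 was at hand for 6 of the 10 genes, and Egr3, Atf3, Fos and Arc were not matched. The 250 bases before the start site are printed 5′ to 3′ on the gene's strand, and capitals mark each CArG box (CC, then 6 of A or T, then GG) and each TGACG on either strand, alone or inside TGACGTCA. Egr1 is at chr18:26736828-26737077 on the plus strand, Ier2 at chr19:40399123-40399372 on the plus strand, Btg2 at chr13:48087691-48087940 on the minus strand, Junb at chr19:40080876-40081125 on the plus strand and Plk3 at chr5:135848901-135849150 on the minus strand.
Egr1: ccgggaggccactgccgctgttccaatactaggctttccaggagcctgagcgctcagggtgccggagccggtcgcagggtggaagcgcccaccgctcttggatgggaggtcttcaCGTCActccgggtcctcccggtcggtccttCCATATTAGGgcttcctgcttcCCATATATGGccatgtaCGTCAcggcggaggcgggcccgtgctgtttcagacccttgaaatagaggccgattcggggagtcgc
Ier2: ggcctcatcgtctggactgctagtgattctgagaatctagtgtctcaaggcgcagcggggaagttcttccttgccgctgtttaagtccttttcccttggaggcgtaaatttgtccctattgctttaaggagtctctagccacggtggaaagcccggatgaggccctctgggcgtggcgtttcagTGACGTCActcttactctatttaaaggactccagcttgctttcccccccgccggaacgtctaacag
Btg2: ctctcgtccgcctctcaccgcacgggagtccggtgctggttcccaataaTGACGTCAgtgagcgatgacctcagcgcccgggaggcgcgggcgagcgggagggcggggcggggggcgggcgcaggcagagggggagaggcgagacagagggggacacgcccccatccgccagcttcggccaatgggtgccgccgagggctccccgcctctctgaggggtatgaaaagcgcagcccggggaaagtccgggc
Junb: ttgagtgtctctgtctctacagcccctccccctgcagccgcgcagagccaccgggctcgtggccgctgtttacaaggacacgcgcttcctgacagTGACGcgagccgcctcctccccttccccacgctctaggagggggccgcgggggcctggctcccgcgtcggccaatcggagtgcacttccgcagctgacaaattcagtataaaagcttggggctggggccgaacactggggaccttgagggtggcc
Plk3: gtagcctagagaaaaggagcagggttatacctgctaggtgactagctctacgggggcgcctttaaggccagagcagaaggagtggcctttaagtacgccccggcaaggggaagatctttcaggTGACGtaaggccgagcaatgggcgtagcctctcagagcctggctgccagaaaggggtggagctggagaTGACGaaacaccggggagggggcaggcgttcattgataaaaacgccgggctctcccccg

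Egr1 held 2 CArG boxes, CCATATTAGG at 105 to 96 bases and CCATATATGG at 83 to 74 bases before the start, and a CArG box was present in 1.5% of the 27457 promoters of the same length. The full cAMP response element TGACGTCA was present in Btg2, 201 to 194 bases before the start, and in Ier2, 66 to 59 bases before it, against 1.70% of all promoters. The shorter TGACG was present in 5 of the 6 matched genes (Btg2, Egr1, Ier2, Junb and Plk3) against 19.0% of all promoters, counting those inside the full element. A TATAAA was found in Junb, 49 to 44 bases before the start, and on the other strand in Klf4 (13.1% of all promoters). Btg2 alone of the 6 held the EGR site GCGNGGGCG (4.53% of all) and the GC box GGGCGG (32.4%). None of the 6 held the AP-1 site TGANTCA (6.36% of all) or the ternary complex factor core CCGGAAGT (3.29%) in this window. A match is a string of letters and was not tested as a binding site.

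Total counts per library ran from 22829692 to 38313704, and those of the set 1 restriction libraries (22829692 to 26037169) lay below those of the set 1 controls (26506707 to 38313704). Summed over the 6 skeletal muscle markers Acta1, Ckm, Mb, Des, Ttn and Neb, every library held between 99018 and 150518 CPM (counts scaled to the library total adjusted by edgeR's TMM factors). The 7 slow-fibre markers summed to between 83895 and 98398 CPM in set 1 and to between 1521 and 5005 CPM in set 2, and the 11 fast-fibre markers were higher in set 2. Control 23 stood apart, with a TMM factor of 0.815 against 0.968 to 1.10 in the other libraries. In bulk muscle, fewer cells of a type and less RNA per cell cannot be told apart. Reads from an antisense transcript would be counted with the gene, because the kit keeps no strand. CPM is not scaled by gene length, so levels are compared between libraries and not between genes.

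Summed over the 10 genes, set 1 held 649, 533 and 560 CPM in control 3, 8 and 9 and 196, 550 and 479 CPM in restriction 12, 13 and 15. In set 2 the sums were 261, 449 and 442 CPM in control 23, 28 and 29 and 124, 173 and 155 CPM in restriction 32, 33 and 35. The diets thus did not overlap in set 2, while in set 1 restriction 13 reached the level of the controls and restriction 12 lay far below every other library of its set. Restriction 12 was the lowest library of set 1 for 9 of the 10 genes, all but Arc, and restriction 13 was the highest of its group for 6. Control 23 was the lowest set 2 control for 7 of the 10, all but Egr1, Egr3 and Ier2.

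**Figure D1:**
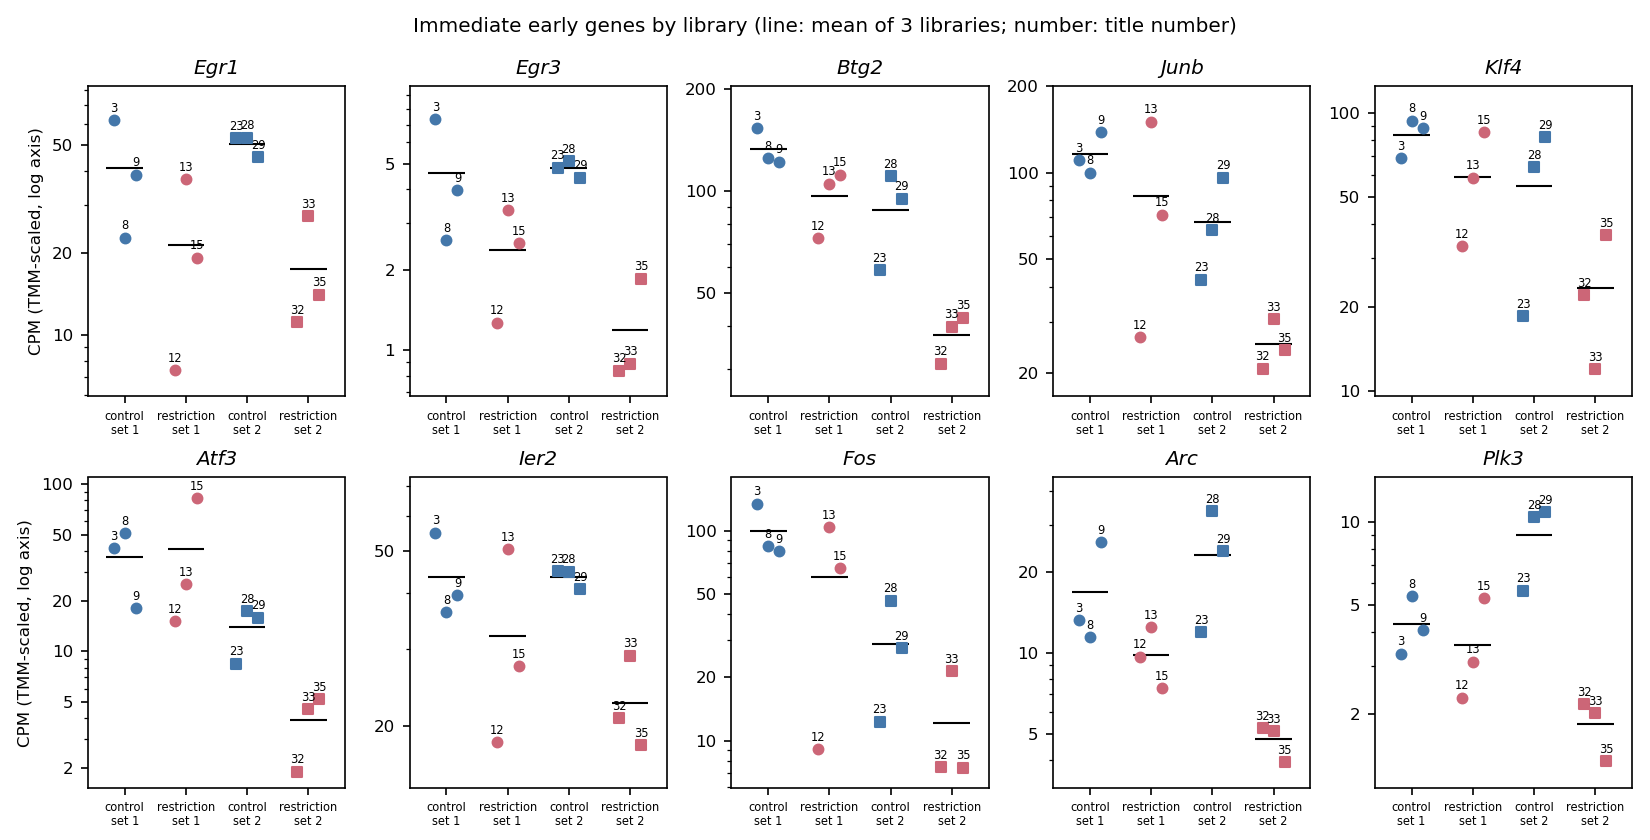
CPM (TMM-scaled, log axis) of each of the 10 genes in the 12 libraries, by diet and set; each point is a library with its title number and each line the mean of 3 libraries. The set 2 restriction libraries form the lowest group mean in all 10 panels, and restriction 12 lies at the bottom of its set in 9 of them.

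Egr1 and Egr3 are zinc finger transcription factors of the early growth response family. Egr1 measured 61.9, 22.8 and 38.9 CPM in control 3, 8 and 9 and 7.42, 37.4 and 19.2 CPM in restriction 12, 13 and 15. The diets overlapped there, since restriction 13 lay above control 8. In set 2, Egr1 measured 53.1, 53.2 and 45.1 CPM in control 23, 28 and 29 and 11.1, 27.4 and 14.1 CPM in restriction 32, 33 and 35. Each of these restriction libraries lay below each control, and the 3 controls lay close together. Egr3, a factor also known for its part in muscle spindle formation, measured 7.33, 2.58 and 3.97 CPM in the set 1 controls and 1.27, 3.34 and 2.52 CPM in the set 1 restriction libraries, which overlapped. In set 2, Egr3 measured 4.83, 5.12 and 4.43 CPM in the controls and 0.839, 0.891 and 1.85 CPM in the restriction libraries. It rested on 25 to 218 counts per library, and its set 2 groups did not overlap. The log2 fold change from control to restriction, fitted by edgeR, was -0.95 ± 0.48 (SE, n = 3 against 3) in set 1 and -1.52 ± 0.48 in set 2 for Egr1. For Egr3 it was -0.96 ± 0.45 in set 1 and -2.0 ± 0.47 in set 2.

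Fos and Junb are partners in the AP-1 transcription factor, and Atf3 is a stress-induced member of the ATF family that can pair with JUN proteins. Fos measured 134, 84.4 and 80.0 CPM in the set 1 controls and 9.12, 104 and 66.2 CPM in restriction 12, 13 and 15. Its lowest value in set 1 was thus in restriction 12 and its second highest in restriction 13, both of 1 group. In set 2, Fos measured 12.3, 46.4 and 27.5 CPM in control 23, 28 and 29 and 7.45, 21.4 and 7.44 CPM in restriction 32, 33 and 35. The groups overlapped, with restriction 33 above control 23. Junb measured 110, 100 and 138 CPM in the set 1 controls and 26.6, 150 and 71.3 CPM in the restriction libraries, where restriction 13 was the highest of all 6. In set 2, Junb measured 42.3, 63.1 and 96.0 CPM in the controls and 20.7, 30.7 and 24.1 CPM in the restriction libraries, with no overlap. Atf3 was the exception in set 1, with 41.3, 50.8 and 18.2 CPM in the controls and 15.1, 25.3 and 82.2 CPM in the restriction libraries. Restriction 15 was the highest of the 6, and the group mean of restriction was above that of control. In set 2, Atf3 measured 8.48, 17.4 and 15.9 CPM in the controls and 1.91, 4.52 and 5.18 CPM in the restriction libraries, with no overlap. The log2 fold change was -0.74 ± 0.65 in set 1 and -1.25 ± 0.67 in set 2 for Fos, the widest errors of the 10 in each set. Junb stood at -0.49 ± 0.44 and -1.42 ± 0.45 in set 1 and set 2. Atf3 stood at 0.15 ± 0.54 and -1.85 ± 0.58, and at -0.86 in set 1 without restriction 15.

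Klf4 is a Krüppel-like zinc finger factor, Btg2 an antiproliferative protein that promotes mRNA deadenylation, and Ier2 a small nuclear protein induced by growth factors. Klf4 measured 68.8, 93.9 and 88.3 CPM in the set 1 controls and 33.1, 58.6 and 85.2 CPM in the restriction libraries. Restriction 15 lay among the controls. In set 2, Klf4 measured 18.6, 63.8 and 82.1 CPM in control 23, 28 and 29 and 22.1, 12.0 and 36.3 CPM in the restriction libraries, and control 23 lay below 2 of those. Btg2 measured 153, 125 and 122 CPM in the set 1 controls and 72.8, 105 and 112 CPM in the restriction libraries. In set 2, Btg2 measured 58.5, 111 and 95.2 CPM in the controls and 31.1, 39.9 and 42.4 CPM in the restriction libraries. Btg2 was the gene of the 10 whose diets overlapped in neither set. Ier2 measured 54.9, 36.2 and 39.6 CPM in the set 1 controls and 18.4, 50.4 and 27.3 CPM in the restriction libraries. In set 2, Ier2 measured 45.0, 44.8 and 40.9 CPM in the controls and 20.9, 28.9 and 18.1 CPM in the restriction libraries. The pattern was that of Egr1, with restriction 13 among the set 1 controls and set 2 controls that lay close together. The log2 fold changes in set 1 and set 2 were -0.50 ± 0.47 and -1.23 ± 0.48 for Klf4. Btg2 had -0.47 ± 0.23 and -1.22 ± 0.23, the smallest errors of the 10. Ier2 had -0.44 ± 0.29 and -0.94 ± 0.30.

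Arc codes for a capsid-forming protein best known from synapses, and Plk3 for a stress-responsive kinase of the polo-like family. Arc measured 13.2, 11.4 and 25.8 CPM in the set 1 controls and 9.68, 12.4 and 7.37 CPM in the restriction libraries, of which restriction 13 lay above control 8. In set 2, Arc measured 12.0, 33.7 and 23.9 CPM in the controls and 5.23, 5.11 and 3.92 CPM in the restriction libraries. The set 2 restriction libraries lay close together and below every other library for Arc. Plk3 measured 3.33, 5.39 and 4.05 CPM in the set 1 controls and 2.30, 3.11 and 5.29 CPM in the restriction libraries. In set 2, Plk3 measured 5.63, 10.4 and 10.9 CPM in the controls and 2.18, 2.02 and 1.35 CPM in the restriction libraries. For Plk3 the set 2 controls were the 3 highest of the 12 libraries and the set 2 restriction libraries the 3 lowest, on 43 to 327 counts per library. The log2 fold change was -0.78 ± 0.36 in set 1 and -2.29 ± 0.38 in set 2 for Arc. Plk3 had -0.25 ± 0.36 in set 1 and -2.28 ± 0.38 in set 2.

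Averaged over the sets, the log2 fold change ran from -1.53 ± 0.26 (Arc) and -1.48 ± 0.33 (Egr3) to -0.84 ± 0.16 (Btg2) and -0.69 ± 0.21 (Ier2). Egr1 (-1.24 ± 0.34), Plk3 (-1.27 ± 0.26), Fos (-0.99 ± 0.47), Junb (-0.95 ± 0.31), Klf4 (-0.86 ± 0.33) and Atf3 (-0.85 ± 0.39) lay between. The choice of the genes fixed this direction. The median of the 10 was -0.50 in set 1, with 9 of 10 below 0, and -1.47 in set 2, with 10 of 10 below 0. Over all tested genes the medians were -0.0031 and -0.012, with 50.4% and 51.5% below 0. The median of the 10 in set 1 rested on single libraries, at -0.22 without restriction 12 and at -0.95 without restriction 13. In set 2 it was -1.29 without restriction 32, -1.65 without control 23 and -1.89 without restriction 33. Single genes moved as well in set 1 with 1 library left out: Junb ran from -1.24 (without restriction 13) to -0.068 (without restriction 12), Fos from -1.40 to -0.23, Egr1 from -1.62 to -0.52 and Ier2 from -0.92 to -0.16, with the low values without restriction 13 and the high ones without restriction 12 (Fos and Ier2) or control 3 (Egr1). Egr3 came to -0.45 without control 3, Btg2 to -0.30 and Klf4 to -0.22 without restriction 12, Arc to -0.33 without control 9, and Plk3 ran from -0.65 (without restriction 15) to -0.018 (without restriction 12). In set 2, Fos ran from -1.95 (without restriction 33) to -0.72 (without control 28) and Klf4 came to -0.82 without control 29. For scale, edgeR's quasi-likelihood test called 0.00703% of the tested genes in set 1, 0% in set 2 and 0.00703% over both sets between the diets at an adjusted p under 0.05. An unadjusted p under 0.05 was reached by 1073, 1222 and 1114 genes, and the calls of DESeq2 were 38, 40 and 55 and of limma-voom 3, 0 and 0.

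**Figure D2:**
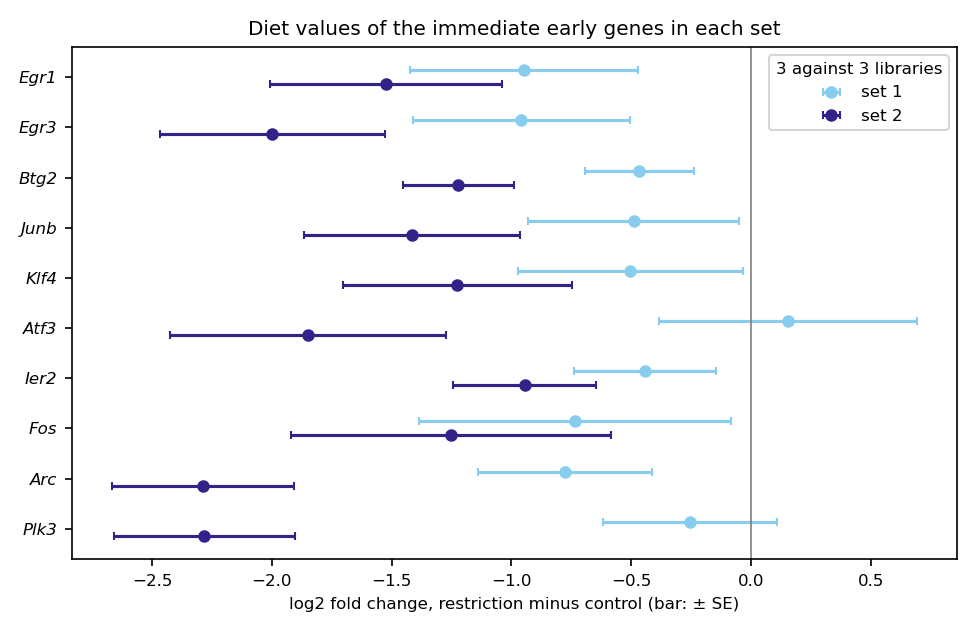
Log2 fold change of the 10 genes from control to restriction in set 1 (light points) and set 2 (dark points), 3 against 3 libraries, with bars of ± 1 SE. The SE comes from the fit to all 12 libraries, with 1 spread per gene over the 4 groups, and is not the spread of each set alone. In set 1 the values run from -0.96 to 0.15, and in set 2 from -2.29 to -0.94, each gene lower in set 2 than in set 1.

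The 3 restriction libraries lay below the 3 controls for 1 of the 10 genes in set 1 (Btg2), where 9.6% of all tested genes did so. In set 2 they did for 8 of the 10, all but Klf4 and Fos, where 5.72% of all tested genes did. Both held for Btg2 alone, against 0.408% of all genes. These counts are descriptions of what chose the genes. In a check chosen after seeing the data, leaving out 1 library of set 1 gave 1 to 7 genes, while the share of all tested genes ran from 13% to 17.3%. The count was 2 without control 3 (17.3% of all genes), 4 without control 8 (13.5%), 7 without restriction 13 (13%) and 3 without restriction 15 (14.1%). Leaving out 1 library of set 2 gave 8 to 10 genes against 8.67% to 12.1% of all genes, with 10 without control 23 (12.1%) and 9 without restriction 33 (10.1%).

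Markers of other cell types were read beside these values. Between the diets averaged over the sets, edgeR called none of the markers of the 14 lists, where it called 0.00703% of all tested genes. In set 2, the red blood cell markers summed to between 744 and 2492 CPM in controls, highest in control 23, and to between 393 and 518 CPM in restriction libraries. All 7 tested markers of that list lay below 0 there, with a median log2 fold change of -1.79. Hba1, a globin, measured 1711, 481 and 604 CPM in control 23, 28 and 29 and 231, 253 and 324 CPM in restriction 32, 33 and 35, and Alas2, the haem synthesis enzyme of red cell precursors, measured 11.3, 4.05 and 4.40 CPM against 1.81, 2.81 and 1.88 CPM. The 6 tendon markers summed to between 129 and 195 CPM in the set 2 controls and to between 256 and 386 CPM in the set 2 restriction libraries. In set 1 the fast-fibre markers summed to between 7954 and 12160 CPM in controls and to between 13609 and 16142 CPM in restriction libraries. The summed macrophage markers overlapped between the diets, at 244 to 437 against 237 to 575 CPM in set 1 and at 65.5 to 137 against 64.7 to 121 CPM in set 2, with Marco at 0 in every library. The endothelial markers overlapped as well, at 272 to 383 against 306 to 387 CPM in set 1 and at 400 to 438 against 345 to 437 CPM in set 2. The part of these cell types, and of the depth of the set 1 libraries, in the values of the 10 genes was not tested.

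The sets were compared over both diets, a contrast that was not itself used to choose the genes. Its averages include the restriction libraries whose low values chose them, and those values were lowest in set 2. The p-values here are thus not free of that choice. In set 2, 5 of the 10 genes fell relative to set 1 and none rose by edgeR's quasi-likelihood test, where 39.5% of all tested genes passed, 19.9% higher and 19.6% lower. The 5 were both AP-1 partners Fos and Junb, the ATF factor Atf3, Klf4 and Btg2. Atf3 fell by 2.40 ± 0.41 (SE, n = 6 against 6, adjusted p = 0.00034 by edgeR), which is 5.26-fold, and Fos fell by 2.05 ± 0.48 (adjusted p = 0.0037 by edgeR), which is 4.14-fold. Junb fell by 1.25 ± 0.32 on the log2 scale (adjusted p = 0.0061 by edgeR) and Btg2 fell by 0.98 ± 0.16 (adjusted p = 0.00031 by edgeR). Klf4 fell by 0.97 ± 0.34 (adjusted p = 0.033 by edgeR). This last call was lost without control 8 or 9 or restriction 13, 15, 32 or 33 (adjusted p = 0.057 to 0.098 by edgeR), while the other 4 genes were called without any 1 of the 12 libraries.

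The other 5 genes did not pass, and their 95% intervals show what the data allow. Egr1 stood at 0.003 ± 0.34, with an interval from -0.72 to 0.73, and Plk3 at 0.07 ± 0.26, from -0.49 to 0.62. Both signs turned with library size alone as scaling, to -0.13 and -0.030. Egr3 stood at -0.47 (-1.16 to 0.22), Arc at -0.29 (-0.84 to 0.26) and Ier2 at -0.25 (-0.70 to 0.20). With those 2 at or above 0, 8 of the 10 lay below 0, as did 50.3% of all tested genes, and the median was -0.72 against -0.0075 over all. Control means alone were higher in set 2 than in set 1 for Plk3 (8.99 against 4.26 CPM) and Arc (23.2 against 16.8 CPM). So were those of Egr1 (50.5 against 41.2 CPM) and, narrowly, Egr3 (4.79 against 4.63 CPM), while Ier2 had 43.6 CPM in both. Control means of Fos, Junb, Atf3, Btg2 and Klf4 were lower in set 2, and restriction means were lower there for all 10 genes. No gene had all 6 set 2 libraries below all 6 of set 1, which 9.77% of tested genes had. The 3 control libraries of set 2 lay below the 3 of set 1 for 4 of the 10 genes (Fos, Junb, Atf3 and Btg2), as for 18.1% of all tested genes, and above them for 1 (Plk3), as for 16.1%. The 3 restriction libraries of set 2 lay below those of set 1 for 4 of the 10 (Btg2, Atf3, Arc and Plk3), as for 24.6% of all tested genes, and above them for none, against 24.4%.

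**Figure D3:**
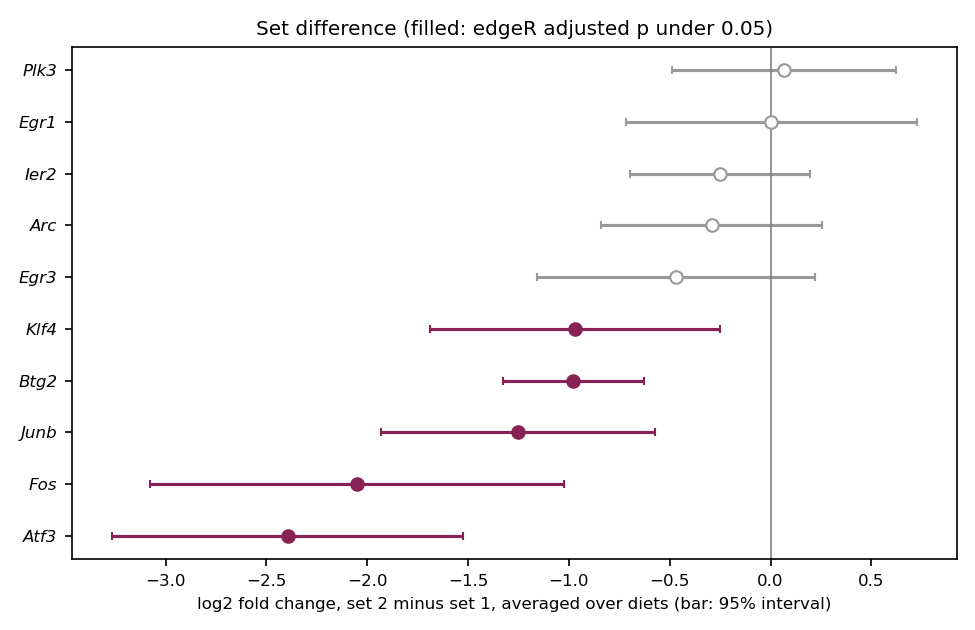
Log2 fold change of the 10 genes in set 2 against set 1, averaged over both diets, with 95% intervals from edgeR; filled points passed at an adjusted p under 0.05. Atf3, Fos, Junb, Btg2 and Klf4 lie between -2.40 and -0.97, and the intervals of the other 5 genes cross 0.

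Slow and fast fibre markers and several other lists also differed between the sets, where 19.9% of all tested genes were called higher and 19.6% lower in set 2. All 7 slow-fibre markers and all 10 tested macrophage markers were lower in set 2, and all 11 fast-fibre markers higher, each by edgeR at an adjusted p under 0.05. Of 8 markers of fibro-adipogenic progenitors 6 were lower, of 7 adipocyte markers 6 were lower, and of 10 endothelial markers 5 were higher and 1 lower. Their part in the set values of Fos, Junb, Atf3, Klf4 and Btg2 was not tested.

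The difference between the sets in the diet value was below 0 for all 10 genes and for 50.2% of all tested genes, and ran from -2.03 to -0.50 with a median of -0.84. The genes were chosen with the values of each set known, so this too is a description with no test. It was largest for Plk3 (-2.03 ± 0.52, SE), whose controls were higher and restriction libraries lower in set 2 than in set 1, for Atf3 (-2.0 ± 0.78) and for Arc (-1.51 ± 0.52). Btg2 had -0.76 ± 0.32, Egr3 -1.04 ± 0.64 and Junb -0.93 ± 0.63, while Egr1 (-0.58 ± 0.67), Fos (-0.52 ± 0.92), Klf4 (-0.72 ± 0.67) and Ier2 (-0.50 ± 0.42) had errors near or above their size. For scale, edgeR called 0% of all tested genes in this contrast, where 1351 reached an unadjusted p under 0.05 and the calls of DESeq2 and limma-voom were 30 and 0. In simulated data edgeR recovered 9% of 2-fold and 68% of 4-fold changes in this contrast.

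Within a group of 3 libraries the 10 genes varied more than most. The SD of log2 CPM, pooled over the 4 groups, had a median of 0.654 for the 10 against 0.355 for all tested genes, and 9 of the 10 lay above the latter. Fos varied most, with an SD of 1.15 that 5.59% of genes exceeded. Atf3 (0.875), Klf4 (0.787) and Egr1 (0.766) followed, exceeded by 13.4% to 17.8% of genes. Btg2, at 0.329, varied least, and 54.0% of genes varied more. Junb (0.717), Egr3 (0.592), Arc (0.537), Plk3 (0.469) and Ier2 (0.434) lay between.

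Much of this spread was shared. With each library set against the mean of its group, the 10 genes averaged -0.88 on the log2 scale in restriction 12 and 0.52 and 0.36 in restriction 13 and 15. They averaged -0.54 in control 23 and 0.33 and 0.21 in control 28 and 29. Over the 12 libraries, which share depth and scaling within each library, Pearson's r was above 0 for 40 of the 45 pairs of genes and above 0.5 for 19, with a median of 0.46. These values are a description with no p, and pairs of other genes were not counted beside them. Egr1 and Ier2 went together most closely (r = 0.94), followed by Junb and Fos (0.84), Egr1 and Fos (0.82) and Ier2 and Fos (0.80). Btg2 went with Fos (0.79) and Atf3 (0.74), while Atf3 and Arc had the lowest value, -0.27.

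**Figure D4:**
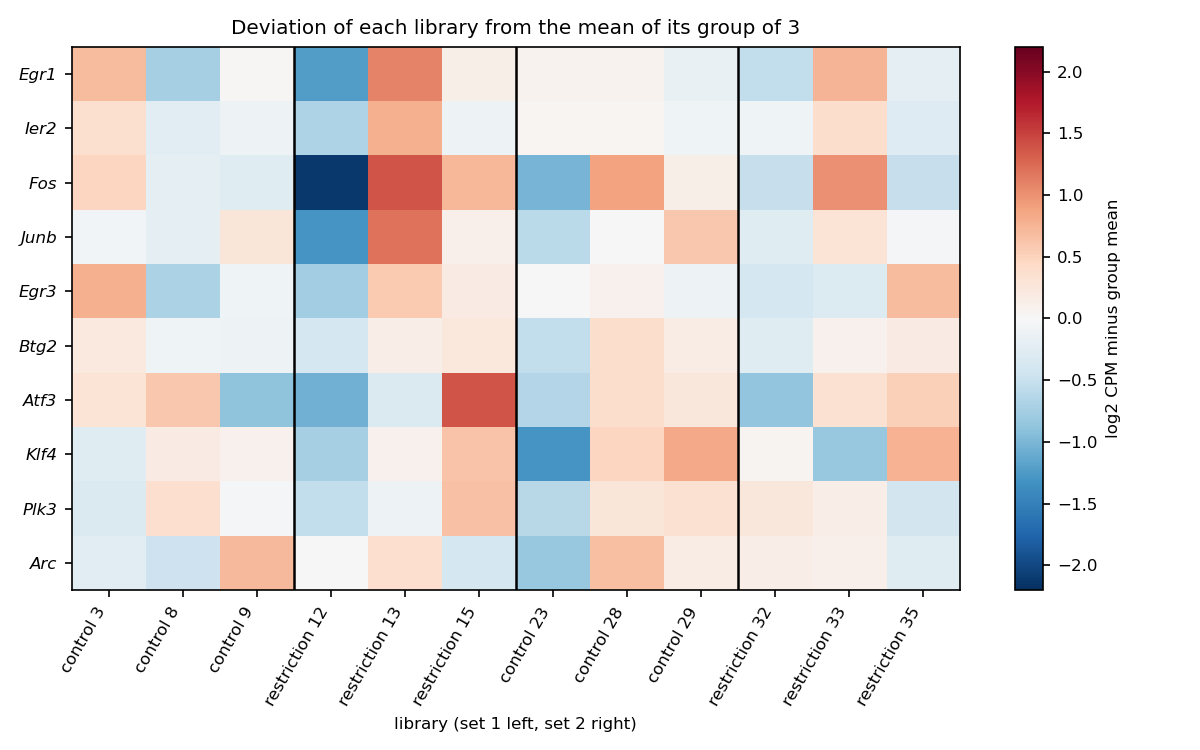
Deviation of each of the 10 genes in each of the 12 libraries from the mean of its group of 3 (log2 CPM, red above and blue below the mean; black lines separate the groups). Restriction 12 and control 23 have the lowest averages over the 10 genes, -0.88 and -0.54.

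Restriction 12 and control 23 carried much of the common pattern. Without them, in a check chosen after seeing the data, 24 of 45 pairs were above 0 and 9 above 0.5, and the median r was 0.09, over 10 libraries. Among the 9, r was 0.88 for Egr1 and Ier2, 0.84 for Egr1 and Fos, 0.83 for Ier2 and Fos, 0.70 for Egr3 and Btg2, 0.63 for Btg2 and Atf3, and 0.63 for Junb and Ier2. Junb and Fos went down to 0.33, and Klf4 and Fos turned to -0.90. Of the motifs searched, the promoters of Egr1 and Ier2, the closest pair, had TGACG in common, while the CArG boxes were in Egr1 and the full TGACGTCA in Ier2. TGACG was in 5 of the 6 matched genes, also in Btg2, Junb and Plk3, so it does not set this pair apart, and Fos was not matched. Any link of these motifs with the correlations was not tested.

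Among 11978 genes with a mean CPM of at least 1, the 8 whose deviations were most like the average of the 10 over 12 libraries were Dusp1 (r = 0.94), Phf13 (0.93), RGD1304622 (0.92), Wdfy3 (0.92), Xpnpep3 (0.91), Harbi1 (0.91), Klhl5 (0.91) and Oaf (0.90). Dusp1, an immediate early phosphatase that switches off MAP kinases, measured 212, 174 and 169 CPM in control 3, 8 and 9 and 49.3, 178 and 145 CPM in restriction 12, 13 and 15. In set 2, Dusp1 measured 91.2, 165 and 159 CPM in control 23, 28 and 29 and 35.7, 96.0 and 67.7 CPM in restriction 32, 33 and 35. Dusp1 was thus the lowest of its group in restriction 12 and in control 23, where the 10 genes averaged lowest. It was also the lowest of its group in restriction 32, whose 35.7 CPM was the lowest of the 12 libraries. Without restriction 12 and control 23 the r of Dusp1 was 0.89, at rank 107. None of the 8 stayed among the first 8 then, with Wdfy3 at -0.26. Dusp1 alone stayed when group means were left in. Averaged over the sets, Dusp1 had a diet value of -0.82 ± 0.29 and did not pass.

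A list of 54 other immediate early genes, of which 51 were tested, gave a wider view. Averaged over the sets, 47 of the 51 lay below 0 in restriction, with a median log2 fold change of -0.37 against -0.010 for all tested genes, of which 51.8% lay below 0. None of the 51 passed by edgeR, which called 0.00703% of all tested genes in this contrast. At an unadjusted p under 0.05 stood 10 on the lower and 2 on the higher side, DESeq2 called 2 (Nr4a2 and Tob1) and limma-voom 0. The smallest p values belonged to Nr4a2, an orphan nuclear receptor, at -1.91 ± 0.29 (adjusted p = 0.086 by edgeR), to Tob1, a relative of Btg2, at -0.41 ± 0.10 (adjusted p = 0.38 by edgeR), and to Sik1, a salt-inducible kinase, at -1.79 ± 0.46 (adjusted p = 0.38 by edgeR). Without control 23, edgeR called Nr4a2 and Sik1 over both sets, and Nr4a2 and Tob1 in set 1. The other nuclear receptors of that family had -0.88 ± 0.25 (Nr4a1) and -1.14 ± 0.71 (Nr4a3). By set, 41 of 51 lay below 0 in set 1 (median -0.23) and 44 in set 2 (median -0.36), so the list shared the side of the 10 genes with smaller values. The list was chosen with earlier results of these data known and read in the same 12 libraries, so this is no independent support. Of 49 list genes with a mean CPM of at least 1, 42 had deviations that correlated above 0 with the average of the 10. Their median r was 0.42 against 0.0025 over all 11978 such genes, and 34.7% of them against 10.6% of all had r above 0.5. Without restriction 12 and control 23, 20 of the 49 correlated above 0, with a median of -0.32 against 0.0051 over all.

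Between the sets, 22 of these 51 passed by edgeR, 7 higher and 15 lower in set 2, beside the 39.5% of all tested genes. The smallest p values belonged to Ctgf, a matricellular protein (-2.40 ± 0.20), Rcan1, a calcineurin inhibitor (-2.41 ± 0.22), Ier3 (-2.48 ± 0.26), the mRNA decay factor Zfp36l1 (-1.51 ± 0.18), the AP-1 member Jund (-1.22 ± 0.15) and Ier5 (-2.19 ± 0.27). The 15 lower and 7 higher became 16 and 6 with library size alone as scaling, which moved the median of all genes by -0.11 and the share of lower calls among all calls from 49.6% to 61.7%. In the difference between the sets in the diet value, none of the 51 passed by edgeR, DESeq2 or limma-voom, and 3 had an unadjusted p under 0.05.

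**Figure D5:**
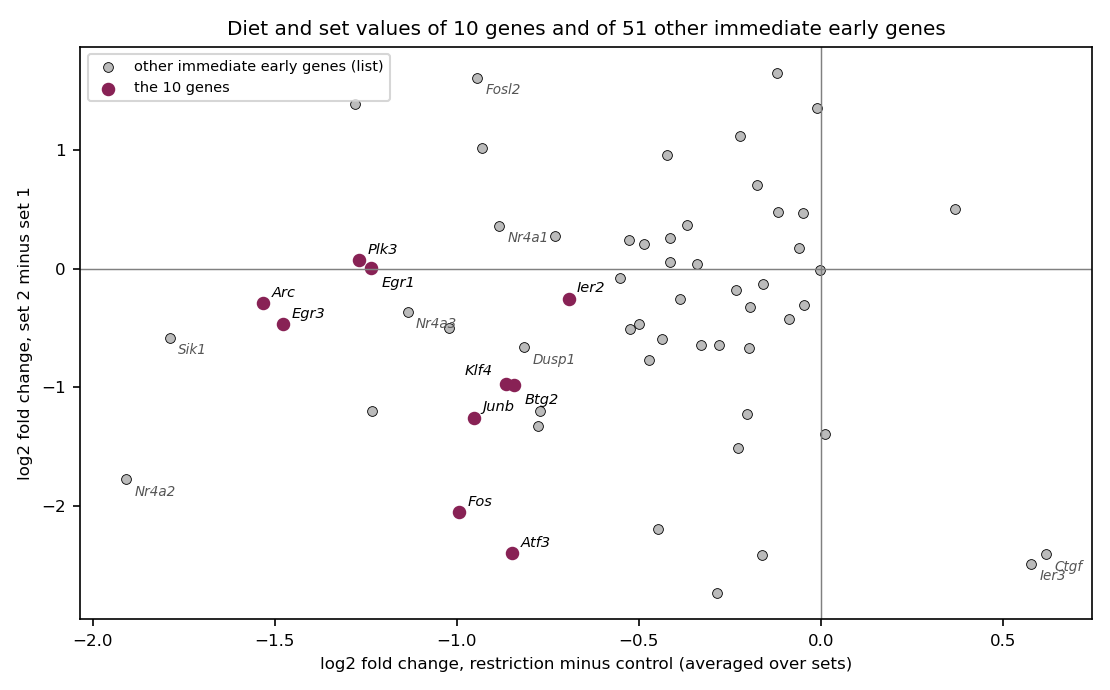
Log2 fold change of the 10 genes (dark points, named) and of the 51 other immediate early genes (grey points) from control to restriction, averaged over the sets (x axis), and in set 2 against set 1 (y axis). All 10 genes and 47 of the 51 lie left of 0 on the x axis. On the y axis the 51 spread over both sides of 0. Of the 10 genes 8 lie below 0 there, with Egr1 (0.003) and Plk3 (0.07) close to it.

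Relatives of the 10 genes and the cascade above them were read from lists as well. These lists share genes with that of the other immediate early genes, among them Srf, Jun, Jund, Fosl2, Egr2, Klf10, Tob1, Btg1 and Plk2. Between the diets averaged over the sets, edgeR called none of their members, where it called 0.00703% of all tested genes. Of 26 kinases, coactivators and factors upstream, such as the ERK, JNK and p38 kinases, Srf and Creb1, 12 lay below 0, with a median of 0.0093, and 1 had an unadjusted p under 0.05. Between the sets edgeR called 39.5% of all tested genes, 19.9% higher and 19.6% lower in set 2, the shares to set beside each list here. Of the 26, 9 rose in set 2 and none fell. Among the 9 were Mapk9, a JNK, at 1.15 ± 0.16, Hras at 0.81 ± 0.13 and the p38 kinase Mapk14 at 1.02 ± 0.20. Other AP-1 and ATF genes split evenly around 0 between the diets, with 6 of 11 tested below it and a median of -0.018. Between the sets, 3 of them rose (Atf4, Fosl2 and Atf2) and 4 fell (Jund, Atf5, Fosl1 and Batf3). The diet values of Egr2 and of the EGR corepressors Nab1 and Nab2 were -0.23 ± 0.43, 0.68 ± 0.18 and 0.05 ± 0.14. Between the sets Nab1 rose by 0.55 ± 0.18 and Nab2 fell by 0.74 ± 0.14. Of 12 other KLF genes 6 lay below 0 between the diets (median -0.035), and Klf10 (1.39 ± 0.42) and Klf9 (0.73 ± 0.24) rose in set 2. All 4 tested BTG and TOB relatives of Btg2 lay below 0 between the diets, with a median of -0.18. Of these, Tob2 (-0.0020 ± 0.43) and Btg1 (-0.087 ± 0.13) lay close to 0. DESeq2 called 1 of them, Tob1, the same call as given for the other immediate early genes. Tob2 rose in set 2 (1.43 ± 0.44), while Btg3 (-1.23 ± 0.33) and Btg1 (-0.43 ± 0.13) fell. The tested PLK relatives Plk1 and Plk2 stood at -0.59 ± 0.47 and -0.12 ± 0.28 between the diets and did not pass between the sets.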

How the data were processed

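Frozen muscle was extracted with Trizol and sequenced from TruSeq RNA libraries, per the labels' protocols. The submitters' processing notes list the build Rnor_6.0 and the programs Trimmomatic, HISAT2, featureCounts and DESeq2, without versions. Raw counts per gene were taken as the authors deposited them, whole numbers that sum to between 22829692 and 38313704 in a library. A second deposited table, of normalized values, was not used.

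The 10 genes, the lists and the rule for named genes were chosen with earlier results of these data known. The rule named all 10 genes, up to 6 called genes per list by smallest p or else up to 3 as not passing, the Nr4a genes, the 8 genes of most similar pattern, and Hba1 and Alas2. Counts were filtered with filterByExpr, scaled by TMM and fitted with edgeR 4.0.16 (quasi-likelihood, 1 mean per group of 3 libraries, Benjamini-Hochberg over 14225 genes, threshold 0.05) in R 4.3.3. SE is the log2 fold change over the root of F, from the fit to all 12 libraries with 1 spread per gene over the 4 groups. Correlations and SD used log2 CPM with a prior count of 2. Alternatives were DESeq2 1.42.0, limma-voom (limma 3.58.1), other scalings and filters, a replicate block and leaving out each library. In simulated data the fit recovered 75% of 2-fold and 97% of 4-fold changes between the sets, and 7.53% of its calls were false. For the difference between the sets in the diet value it recovered 9% and 68%, and 4.94% of its calls were false. Each simulation changed 100 genes per fold, drawn at random among those with a mean CPM of at least 1. In the real data 39.5% of tested genes were called between the sets. The recovered shares thus need not hold for that contrast or for the 10 genes. Replicate libraries differed beyond sampling noise (chi-square per degree of freedom 24.5 to 146.6).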

Additional observations from a re-analysis of the deposited data

How the results depend on the processing

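The 5 genes that fell in set 2 (Fos, Junb, Atf3, Btg2 and Klf4) were called by DESeq2, limma-voom and under each scaling, filter and block, and 4 to 5 were called when 1 library was left out. Over all genes the set calls ranged from 4880 to 6450 with 1 library left out. Genes near 0 changed sign: Egr1 between the sets was -0.13 with library size alone and -0.0098 with only genes of mean CPM 1 or more, and Plk3 -0.030 with library size alone. With 1 library left out, the set value ranged from -0.23 to 0.36 (Egr1), -0.048 to 0.28 (Plk3) and -0.39 to 0.0060 (Ier2), and the difference between the sets in the diet value from -1.05 to 0.098 (Egr1) and -1.21 to 0.14 (Fos). For that difference DESeq2 called 30 genes, no filter on low counts 1, and leaving out 1 library 0 to 1. Of the 560 diet values of the 10 genes across alternatives, 544 lay below 0, and those above were of Atf3 in set 1. Among the other immediate early genes, the diet calls over both sets and in set 1 were 2 and 2 by DESeq2, 1 and 1 without a filter, and 0 to 2 each with 1 library left out. With 1 library of set 1 left out, restriction lay below control for 1 to 7 of the 10 genes and for 13% to 17.3% of all tested genes. Of the 8 genes most like the 10, 0 stayed without restriction 12 and control 23, and 1 with group means left in. Without those libraries 24 pairs of the 10 genes correlated above 0. The cause of these shifts was not tested.

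Title numbers 20 apart could pair libraries across the sets. Their deviations correlated by 0.079 to 0.175, with 4 of 6 above 0.1. The lower-numbered library of each pair was closest to its partner among the 3 libraries of the same diet in the other set. Libraries of the other diet were left out of that comparison. The pairing is a hint from the data and not from the design. With these pairs as a replicate block, 5802 genes, 5 of the 10 genes and 29 other immediate early genes were called between the sets. In the difference between the sets in the diet value, 0 genes were called with that block. With 3 libraries a group, depth limits Egr3 and Plk3 most, with as few as 25 and 43 counts in a library.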
